A study of Curcuma longa with 2 samples.

Results

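The miR319 family was examined in small RNA of nanoparticles prepared from turmeric root (Curcuma longa). It comprised every sequence in the deposited miRNA table whose first name is miR319, whatever the plant of the name. There were 12 such sequences among 186 distinct sequences in the table. They are called forms here and numbered from 1 to 12 by their mean share of the reads. The study sequenced 2 samples, library 1 and library 2, which form 1 group: turmeric nanoparticles, with no control, no treatment and no other genotype. No label ties them to separate batches of particles, and their spread may be purely technical. RNA carried by the particles and RNA isolated along with them cannot be told apart.

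miR319 is an ancient plant microRNA that guides the silencing of messenger RNAs of TCP transcription factors of the CIN type. These factors limit cell division in growing leaves, and in Arabidopsis an excess of miR319 gives large, crinkled leaves. The mature miR319 comes from the 3′ arm of a long hairpin which, in Arabidopsis, is cut from the loop towards the base. miR159 descends from the same ancestor and differs at few bases, but acts mainly on GAMYB-type MYB genes.

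The forms are shown so that their ends can be compared. Each is written 5′ to 3′, with bases 2 to 8 (the seed, the part that matters most for target choice in animals and part of the region that must pair well in plants) in capitals. The first set shares the seed TGGACTG.
Form 1: tTGGACTGaagggagctccc
Form 2: tTGGACTGaagggagctcctt
Form 4: tTGGACTGaagggagctcct
Form 5: tTGGACTGaagggagctccct
Form 9: tTGGACTGaagggagctcccc
Form 11: tTGGACTGaagggagctcttttt
Form 12: aTGGACTGaagggagctccc
The next set begins 1 base earlier, which moves the seed window to TTGGACT.
Form 3: tTTGGACTgaagggagctcta
Form 6: cTTGGACTgaagggagctccc
Form 7: cTTGGACTgaagggagctcct
Form 8: tTTGGACTgaagggagctct
A single form comes from the opposite arm of the hairpin.
Form 10: aGAGCTTCcttcagtccactc

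Apart from form 10, the forms share an unbroken core of 17 bases and differ in what stands before and after it. The first set, with the usual miR319 start, held 80.6% of the family's reads in library 1 and 78.6% in library 2. The forms that begin 1 base earlier held 19.2% and 21.2%. Below them are the pair of miR159 sequences to which they are compared, both with the seed TTGGATT, which no miR319 form had.
Leading miR159 sequence: tTTGGATTgaagggagctccc
miR159 sequence nearest to form 3: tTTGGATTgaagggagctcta

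The table listed 27529.5 miR319 reads of 96386 in library 1 and 19216 of 72196 in library 2. These totals cover the listed entries analysed here and are no measure of how deeply the libraries were sequenced, which is unknown. The family thus held 28.6% of the listed reads in library 1 (95% Clopper-Pearson interval 28.3% to 28.8%) and 26.6% in library 2 (26.3% to 26.9%), a mean of 27.6% ± 1.38 (SD, n = 2). Intervals cover counting error only. Some values are not whole, and a form on 2 lines of the table has its reads summed over them. Per the file headers a listed sequence stands for a cluster of reads by its highest mapping score, and its value may include reads with other ends. How reads were divided between lines and near-identical forms is not stated, so such forms may share reads.

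A few forms made up nearly all of the family. Form 1, which is wheat miR319 without its last base, had 11592 reads in library 1 and 7691 in library 2, or 42.1% and 40.0% of the family. Form 2, which has the length of wheat miR319 and the change C20T (positions counted from 1 at the 5′ end of the registered sequence), had 6025 and 4319 reads. These 2 leading forms held 63.2% ± 1.06 of the family's reads, and the leading 5 held 94.5% ± 0.331 (SD, n = 2 each). Form 1 exceeded form 2 by 1.92-fold in library 1 and 1.78-fold in library 2.

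Form 3 had 4004 reads in library 1 and 3095 in library 2. Relative to asparagus miR319b it carries C20T and T21A, and relative to asparagus miR159 it carries T7C. It is the form that the table names for both families. Form 4, which is asparagus miR319b without its first base, had 2648 and 1662 reads. Form 5 is identical to the registered wheat miR319 and had 1822 and 1355 reads. It was the only form of the 12 that equals a registered mature sequence quoted in the table. Forms exact in this sense held 6.83% ± 0.306 (SD, n = 2) of the family's reads. Registered sequences that the table does not quote were not compared, so other forms may equal one of them.

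The remaining forms were rarer. Form 6, which starts with an extra C and lacks the last base of wheat miR319, had 918.5 reads in library 1 and 715 in library 2. Form 7, with the same extra C and C20T, had 283.5 and 203.5 reads. Both together held 4.37% and 4.78% of the family's reads and were its only forms with a first C. Form 8, which is form 3 without its last base, had 90.5 and 57.5 reads, and form 9, with T21C, had 71 and 50.

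The opposite arm was represented by form 10, with 45 reads in library 1 and 36 in library 2. Form 11, with a run of T at its 3′ end, had 15 and 27 reads, and form 12, with T1A, had 15 and 5. Forms 8 to 12 together held 0.859% and 0.913% of the family's reads. In 10 of the 11 pairs of neighbouring forms, the higher-ranked form was higher in both libraries and by more than the SD of the log2 ratio. The exception was form 11 against form 12, at equal reads in library 1 and a ratio of 5.40 in library 2. The ranks were taken from the same shares, so this count describes these libraries and is no test of the order.

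**Figure D1:**
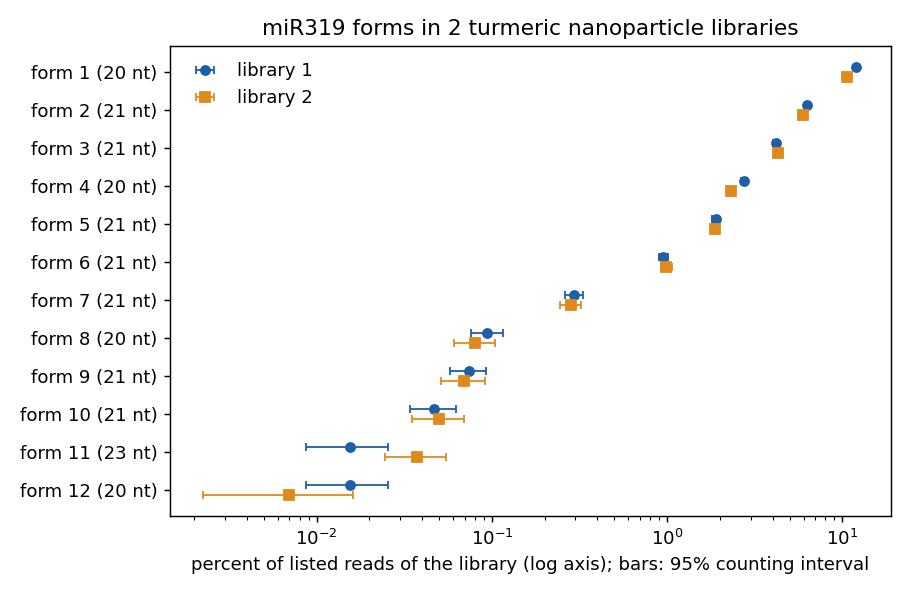
Share of each miR319 form in the listed reads of library 1 (circles) and library 2 (squares), on a log axis, with 95% Clopper-Pearson intervals for counting error. Form 1 held 12.03% and 10.65% of the listed reads, and form 12 held 0.0156% and 0.00693%.

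The lengths of the miR319 reads differed in make-up from those of the other entries, which is given as a description without a test. Reads of 20 nt made up 52.1% of miR319 reads in library 1 and 49.0% in library 2, against 11.2% and 9.79% of the reads of all other entries. Reads of 21 nt made up 47.8% and 50.9% of miR319 reads, against 62.3% and 62.1% of the others. Of all 20-nt reads listed, miR319 forms held 65.1% in library 1 and 64.5% in library 2. In the related miR159 family 99.7% ± 0.0739 (SD, n = 2) of the reads were 21 nt long.

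Whether the 20-nt form led varied among the pairs of forms that differ only in the last base. What this goes with was not tested, and forms 8 and 3 also differ from the other pairs in their start. Forms 1 and 5 differ only in the last T, and the shorter form 1 had 6.36 times the reads of form 5 in library 1 and 5.68 times in library 2. Forms 4 and 2 differ likewise in a last T, and there the shorter form 4 had 0.440 and 0.385 times the reads of form 2. Forms 8 and 3 differ in a last A, and the shorter form 8 had 0.0226 and 0.0186 times the reads of form 3. Forms 1 and 9 differ in a last C, and the shorter form 1 had 11592 and 7691 reads beside 71 and 50 of form 9. In both libraries form 1 thus led over forms 5 and 9, while form 4 trailed form 2 and form 8 trailed form 3.

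**Figure D2:**
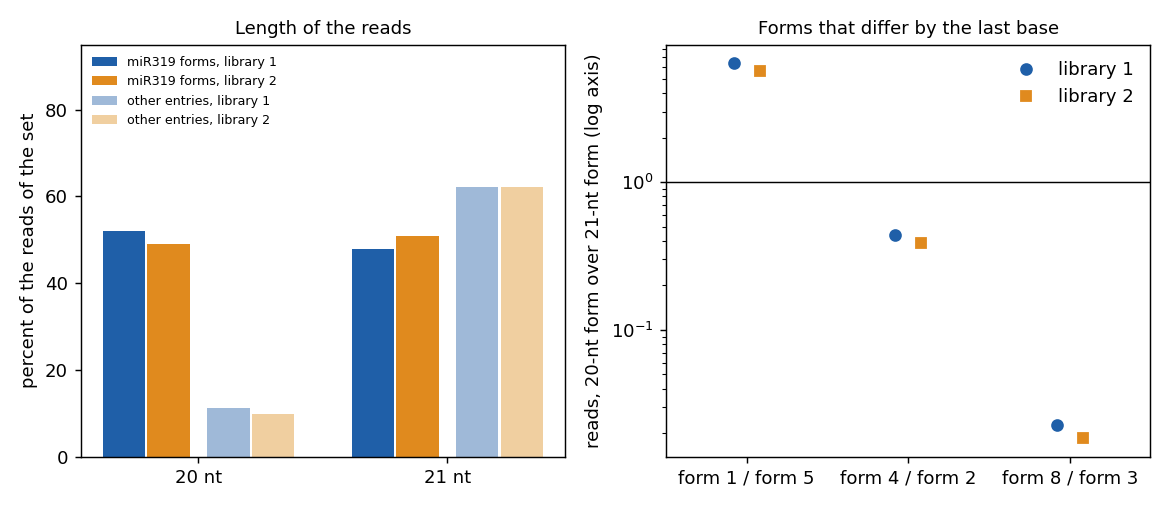
Left, percent of reads that are 20 or 21 nt long among miR319 forms and among all other entries, for each library. Right, reads of the 20-nt form over the 21-nt form for 3 pairs that differ in the last base, on a log axis, with the line at equal reads. Form 1 over form 5 lies above it, at 6.36 and 5.68, and the other pairs drawn lie below it. The pair of forms 1 and 9 is not drawn.

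The 3′ ends fell into 3 groups by what follows the core. Forms with CC after it (1, 5, 6, 9 and 12) held 52.4% of the family's reads in library 1 and 51.1% in library 2. Forms with CT after it (2, 4 and 7) held 32.5% and 32.2%. Forms with T after it (3, 8 and 11) held 14.9% and 16.5%. The CT group differed between the libraries by 0.248 as an SD, less than the CC group at 0.914 and the T group at 1.14 (n = 2 each). These shares make up nearly all of the family and are thus tied to each other. Within the CT group, form 2 held 21.9% of the family's reads in library 1 and 22.5% in library 2. Form 4 went the other way, with 9.62% and 8.65%.

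A first T stood on 95.2% ± 0.289 of miR319 reads, against 69.9% ± 1.05 of the reads of other entries (SD, n = 2 each). The leading miR159 sequence, with 94.8% ± 0.0406 (SD, n = 2) of miR159 reads, begins with T as well. The high share of a first T is thus not particular to miR319. A first T is the preference known in plants for Argonaute1, the main protein that carries microRNAs. No miR319 form began with G.

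The leading form of miR319 held a smaller part of its family than that of miR159. Form 1 held 41.1% ± 1.47 of miR319 reads, and the leading miR159 sequence held 94.8% ± 0.0406 of miR159 reads (SD, n = 2 each). As families, miR319 had 1.98 times the reads of miR159 in library 1 and 1.84 times in library 2. With form 3 counted under miR159, the mean of this ratio was 1.25 in place of 1.91.

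Form 3 stands between the families, and its sequence and its place in the genome can be set side by side. It differs from the nearest miR159 sequence by T7C alone, counted from 1 at the 5′ end of the miR159 sequence. It had 8.82 times the reads of that sequence in library 1 and 8.81 times in library 2. From the leading miR159 sequence it differs by T7C, C20T and C21A. It holds the miR319 core unbroken, and neither of those miR159 sequences does.

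The table places form 3 at a pair of genome fragments, called locus E and locus J here. Fragments are named by letter from the longest to the shortest, and scaffolds by the number in the table's genome identifiers. No source used here names the genome build, and no annotation of it was used, so nothing is said of genes around them. Locus E, on scaffold 75556:227261153-227261267 (plus strand), holds form 3 exactly, in capitals here.
Locus E: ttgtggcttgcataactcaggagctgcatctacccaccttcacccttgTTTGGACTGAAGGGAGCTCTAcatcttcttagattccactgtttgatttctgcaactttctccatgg
Locus J, on scaffold 33813:3840-3889 (minus strand), is where the miR159 name comes from, and its capitals mark the place given to form 3.
Locus J: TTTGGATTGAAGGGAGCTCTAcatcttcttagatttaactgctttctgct
Locus J does not hold form 3 but the nearest miR159 sequence, from which form 3 differs by T7C. Among all fragments of the table, form 3 was found exactly at locus E alone. The fragments nonetheless share the 14 bases that follow the form, catcttcttagatt.

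Locus E also carries a second listed sequence, upstream of form 3, under a miR159 name. That sequence, cttgcataactcaggagctgc, had 92 reads in library 1 and 44 in library 2. Between its end and the start of form 3 lie 21 bases. The same sequence is listed on a 186-nt miR159 fragment on scaffold 262466:1-186, where 21 bases again lie between it and the miR159 sequence of locus J. That fragment does not contain the miR319 core.

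Loci were listed for 10 of the 12 forms, all but forms 10 and 11. The 14 fragments lay on 9 scaffolds, with 7 on each strand, and were 30 to 134 nt long. The table's legend gives limits for predicted hairpins, and 4 of them can be read from the listed structures: a hairpin of at least 50 nt, at least 16 base pairs, a free energy of -15 kcal/mol or lower and at least 12 paired bases in the mature region. With all base pairs of the listed structure counted, 7 of the 14 miR319 fragments and 139 of the 208 other fragments in the table passed. Among these 7 was locus F, where 13 bases of form 4 were paired, 8 of them within the form itself and 5 with the rest of the fragment. Refolding with ViennaRNA gave free energies within 1 kcal/mol of the deposited ones for 11 of the 14 fragments. Fragments under 50 nt were 4 of the 14 miR319 fragments and 37 of the 208 other fragments.

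The table lists the most abundant form at short fragments, although these are not the only fragments that hold it. Form 1 stood at locus K, with 40 nt and -11.9 kcal/mol, and at locus M, with 31 nt and -9.5 kcal/mol. In both, 6 of the paired bases of form 1 paired within the form itself and not with the rest of the fragment.
Locus K: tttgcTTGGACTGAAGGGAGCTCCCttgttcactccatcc
Locus M: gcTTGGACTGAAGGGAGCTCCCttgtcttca
Capitals again mark the listed form. Locus K lies on scaffold 69369:2646-2685 and locus M on scaffold 7556:122226350-122226380, both on the plus strand. Of the family's reads, 53.6% in library 1 and 51.6% in library 2 were listed at fragments under 50 nt, and 35.3% and 36.2% at fragments that passed the 4 limits. The place where a form is listed is not the only place where it is found. Form 1 was found exactly in 5 of the 14 fragments. In all, 8 forms, with 99.5% of the family's reads in library 1 and 99.4% in library 2, were held exactly by at least 1 fragment that passed the 4 limits, form 1 among them. For forms 1, 5 and 6 this was a single fragment, which is not among those shown.

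Form 4 was found exactly in 6 fragments, while forms 9, 10, 11 and 12 were found exactly in none of them.

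Form 2 had its own loci. Locus C, on scaffold 41941:1637-1766, and locus D, on scaffold 266896:268-395, both on the minus strand, were the only fragments that hold it. Their free energies were -47.5 and -50.4 kcal/mol. In each, 12 bases of form 2 were paired, none of them within the form, which is exactly the minimum set by the limits. Both fragments also contain the shorter form 4.
Locus C: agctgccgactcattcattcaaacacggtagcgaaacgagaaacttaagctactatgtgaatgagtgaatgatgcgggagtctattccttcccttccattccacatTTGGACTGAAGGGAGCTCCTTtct
Locus D: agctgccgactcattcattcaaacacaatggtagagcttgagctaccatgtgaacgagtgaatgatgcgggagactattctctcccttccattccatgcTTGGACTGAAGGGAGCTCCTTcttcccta
Both open with a sequence that the table lists under a citrus miR159 name, agctgccgactcattcattca, which had 0 reads in library 1 and 5 in library 2. Small RNAs from further up the stem of miR319 and miR159 hairpins are known from other plants. In these libraries that product was near the smallest values listed, beside 6025 and 4319 reads of form 2.

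The rarest form was listed at the fragment with the lowest free energy of the 14. Locus A, on scaffold 75556:366774768-366774901 (minus strand), had -64.1 kcal/mol and 17 of the bases of form 12 paired. It does not hold form 12 exactly, and the change from its site to the form is T20C, the fragment's base first.
Locus A: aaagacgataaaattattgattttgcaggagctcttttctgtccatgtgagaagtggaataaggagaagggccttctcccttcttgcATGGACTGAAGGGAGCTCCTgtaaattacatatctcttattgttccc
No form of the opposite arm was listed for this fragment.

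**Figure D3:**
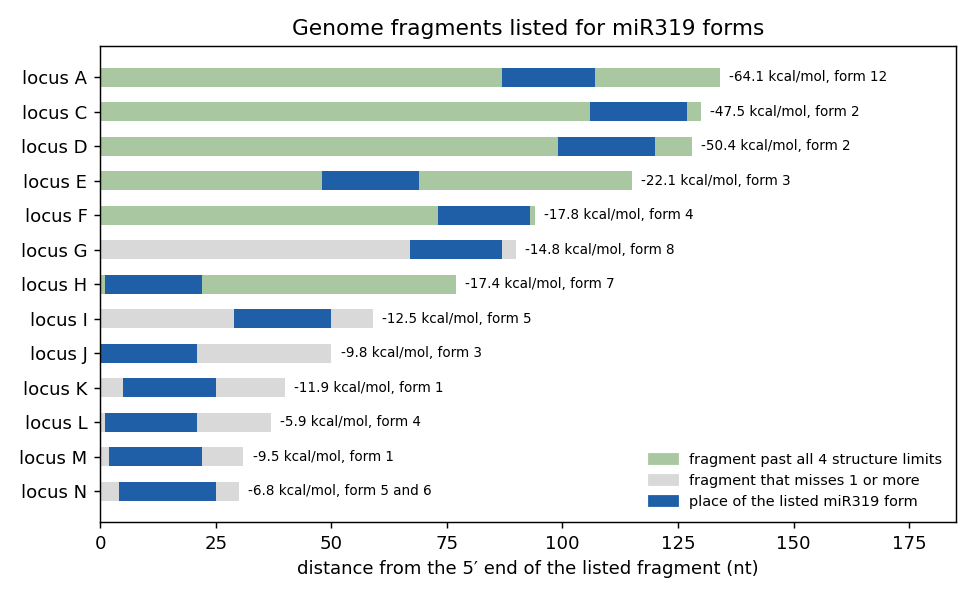
Of the 14 fragments listed for miR319 forms, 13 are drawn to scale from their 5′ ends, with the listed form in blue, the deposited free energy and the form number. Fragments that passed all 4 limits are green and the others grey. The short fragments K to N, at 30 to 40 nt, carry forms 1, 4, 5 and 6.

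The arm of the forms depends on which part of the table is read. None of the entry names bears a 3′ mark. Names with a 5′ mark held 3.70% ± 0.289 (SD, n = 2) of the reads. The remaining 96.3% ± 0.289 (SD, n = 2) were counted on the 3′ arm by name only because that mark is absent. Form 6 is not among them, because it bears a name for an unregistered 5′ product. By the table's own column for the end of the fragment, 41.3% in library 1 and 42.6% in library 2 were on the 3′ side. In the 5 registered hairpins quoted for these entries, the core is centred at 79.3% to 91.2% of the length from the 5′ end, which places all core forms, 99.8% ± 0.0169 (SD, n = 2) of the reads, on the 3′ arm. Form 6 holds this core and lies exactly in 4 of these hairpins.

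Form 10 is the counterpart on the 5′ arm, the strand usually discarded when a microRNA is loaded. It carries C7T and T8C relative to the registered Medicago truncatula 5′ product. It is found exactly in the registered asparagus hairpin aof-MIR319a, where its place and that of form 5 are in capitals here.
aof-MIR319a: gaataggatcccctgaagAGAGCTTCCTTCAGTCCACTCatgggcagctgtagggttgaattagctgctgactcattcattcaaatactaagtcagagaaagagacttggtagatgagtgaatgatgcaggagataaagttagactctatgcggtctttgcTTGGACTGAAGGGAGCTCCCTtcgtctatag
Forms with the core had 611 times the reads of form 10 in library 1 and 533 times in library 2. Folded as a duplex with ViennaRNA, form 10 formed 17 base pairs with form 1, at -32.8 kcal/mol. It formed 18 with form 3, at -34.1 kcal/mol, and also 18 with forms 8 and 11, at -33.4 and -33.5 kcal/mol. With each of the other core forms it formed 17. None of the turmeric fragments holds form 10.

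The libraries were compared form by form with a two-sided exact binomial test of reads, adjusted by Benjamini-Hochberg over all sequences of the table that had reads. This test compares the reads of these libraries and says nothing of other preparations. Of all these sequences 13.8% passed at 0.05, and 5.99% passed with a higher share in library 1. Of the 12 forms, 2 passed, both higher in library 1. For form 1 the share in library 1 was 1.13 times that in library 2 (adjusted p = 5.32e-15, exact binomial test). For form 4 it was 1.19 times (adjusted p = 3.7e-07, exact binomial test). Both had large read numbers, and the size of either difference was small.

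The other forms did not pass. Form 11 had the lowest ratio of library 1 over library 2, 0.416, on 15 and 27 reads (adjusted p = 0.0503, exact binomial test). Form 12 had the highest, 2.25, on 15 and 5 reads (adjusted p = 0.360, exact binomial test). Form 2, at 1.04, and form 5, at 1.01, lay close to equal shares, as did form 3 at 0.969 and form 6 at 0.962. The median ratio was 1.04 over the 12 forms and 0.999 over the 153 sequences with reads in both libraries.

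**Figure D4:**
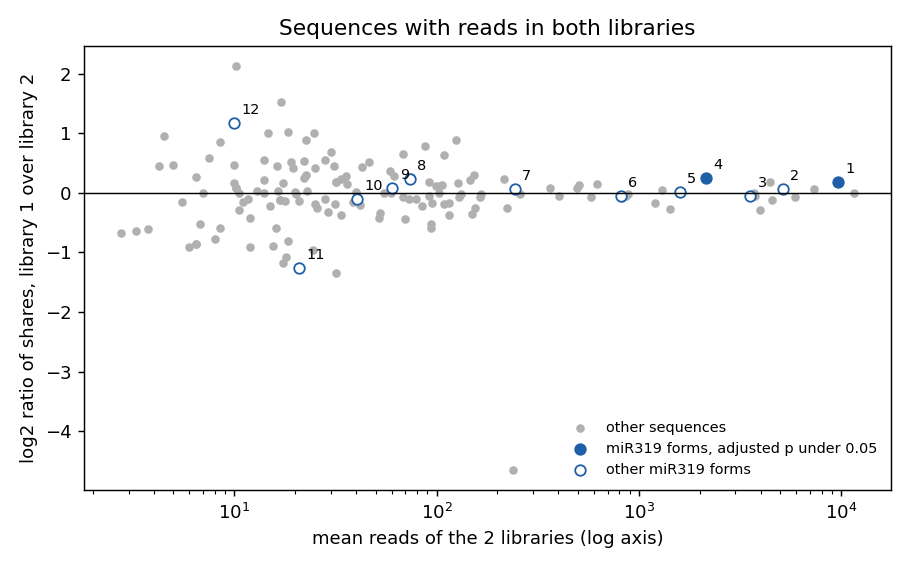
Log2 ratio of shares, library 1 over library 2, against mean reads (log axis) for the sequences with reads in both libraries. Filled circles are miR319 forms with an adjusted p under 0.05 (forms 1 and 4, at 0.17 and 0.26), open circles the other miR319 forms with their numbers, and grey points the other sequences.

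Both forms that passed are 20 nt long. The 20-nt miR319 forms together held 14.88% of all listed reads in library 1 and 13.04% in library 2, a ratio of 1.14. The 21-nt forms held 13.7% and 13.5%, a ratio of 1.01. Other entries moved with length too: their 20-nt reads held 7.98% and 7.18%, a ratio of 1.11, and their 21-nt reads 44.5% and 45.6%, a ratio of 0.975. All 4 of the 20-nt miR319 forms and 10 of the 14 other 20-nt sequences with reads in both libraries had the higher share in library 1. The part of length in the difference of forms 1 and 4 was not tested.

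Other microRNA families that act on regulators of development give the scale of miR319 in these libraries. The list held 12 families, of which 11 had reads in both libraries, summing to 31.8% of the listed reads in library 1 and 32.3% in library 2, beside 28.6% and 26.6% for miR319 alone. The shares of 5 of them were higher in library 1 and of 6 in library 2. Outside this list, miR2916 held 17.7% in library 1 and 17.9% in library 2, more than any family on it. miR396, which silences growth-regulating factor genes and in Arabidopsis is raised by the TCP factors that miR319 restrains, held 2.42% and 2.58%. miR164, which acts on NAC genes that set organ boundaries, held 0.632% and 0.662%. For miR165/miR166, which acts on class III HD-ZIP genes of leaf polarity, the shares were 4.72% and 4.71%. miR390, which starts the pathway of small RNAs that act on auxin response factors, had no entry among those analysed here.

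**Figure D5:**
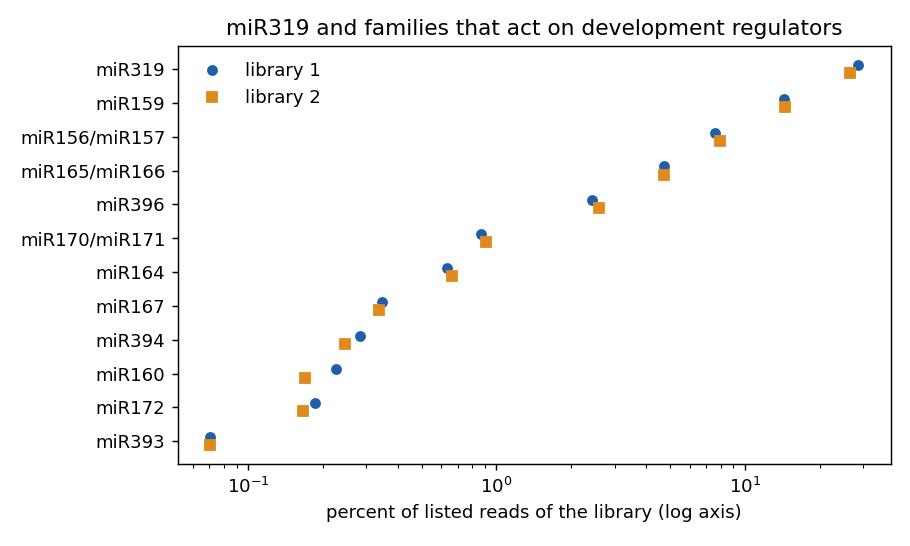
Share of listed reads (log axis) for miR319, at the top, and the 11 development families with reads, in library 1 (circles) and library 2 (squares). miR319 lies at 28.6% and 26.6%, the next family drawn, miR159, at 14.4% and 14.5%, and miR393 is lowest at 0.0705% and 0.0706%. miR2916 is not on the list and is not drawn.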

How the data were processed

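Small RNA of 2 samples was made into TruSeq small RNA libraries, per the labels' protocols. CASAVA 1.8.4 and cutadapt 1.10 appear in the submitters' processing notes, with no role given. The authors mapped reads to miRBase entries and to a genome, per the file headers. No source used here names the miRBase release, aligner or build. The deposited values are expected counts, the number of reads per line per the file headers. The deposited normalized signal is a multiple of them and served as an alternative. The authors' deposited free energy index, a score, was read with the free energies but supports no statement.

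Of 278 lines, 12 without an entry were not analysed here. The table has 2 value columns that match no sample, and they entered no step. Reads were summed over lines of equal sequence (5 of the 12 forms stand on 2 lines) and rounded for tests and intervals. Members and lists were chosen with earlier results of these data known. By the rule for names, every form is named or counted. Forms with at least 1% of the family's reads get values per library, and here the rarer ones do too. Other families come from the development list, with miR2916 beside it.

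Tests used scipy 1.17.1 and folding used ViennaRNA 2.7.2. The binomial test was run on simulated counts that varied between libraries only by counting error and by changes put in. This cannot show how the test behaves where real libraries vary in other ways. Shares are mean ± SD over 2 libraries. Depth is unknown beyond the listed reads, and values of 0 carry no upper limit, since the list may have a minimum. Of the listed genome fragments, 1 is not reported here.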

Additional observations from a re-analysis of the deposited data

How the results depend on the processing

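The alternatives for the arm were chosen after seeing the data. With a single line per sequence, miR319 held 21.6% of the listed reads and form 1 38.9% of the family. In that setting 20 nt held 48.3%, 21 nt 51.5% and the forms counted on the 3′ arm by name 93.0%. There, 13 sequences differed between the libraries in place of 23. With form 3 left out of the family, miR319 held 23.4%, form 1 48.5%, 20 nt 59.7% and 21 nt 40.2%; split over both names, miR319 held 25.5%. Among registered names only it held 29.2%, and without rRNA- or tRNA-like families 33.9%. The arm share was 42.0% by the end column and 99.8% by registered hairpins. The ratio to miR159 was 1.25 with form 3 under miR159. With at least 10 reads in each library, 14 sequences differed. Settings that leave out entries change the totals by construction. The single line does so too, since it drops the reads on the further lines of a sequence. How the division of reads over lines bears on its shift was not tested. Forms 1 and 4 passed the test, and the others did not, in both settings of that test; form 12 was not tested with at least 10 reads in each library. Single libraries gave 26.6% to 28.6% for miR319 and 40.0% to 42.1% for form 1. They gave 49.0% to 52.1% for 20 nt and 47.8% to 50.9% for 21 nt. For the 3′ arm as counted by name they gave 96.1% to 96.5%. They gave 6.62% to 7.05% for exact forms and 1.84 to 1.98 for the ratio. With 2 libraries these ranges say nothing of stability. No paired analysis was possible because both libraries belong to the same, only group.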
